A study of Homo sapiens with 41 samples.

Results

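T98G cells, a human glioblastoma line that leaves the cell cycle without serum and enters it again when serum returns, were followed by sequencing of total RNA depleted of rRNA. The account here concerns the step between neighboring stretches of that time course: the 5 libraries taken at 190, 200, 210, 220 and 230 min after serum against the 5 taken at 240, 250, 260, 270 and 280 min, which are 10 of the 41 libraries. Members were chosen by their labeled time alone, so that no measured value decided which libraries entered. All 10 came from cells seeded separately for each time, left for 24 h to equilibrate, kept without serum for 72 h and then given medium with 20% fetal calf serum. The groups therefore share the line, the starvation and the serum, and differ in time after serum only. T98G is a single cultured line, and each time point is 1 library with no repeat of the culture. Neighboring times stand in for replicates, so every p-value below measures the spread between libraries taken 10 min apart, which holds both technical spread and any drift within a window.

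Serum returned to starved cells switches on immediate early genes such as FOS and EGR1 within minutes through ERK and SRF, and the proteins made from these genes switch on a delayed set some hours later. Genes that keep resting cells from dividing are shut down over the same hours, while the supply of ribosomes, amino acids and lipids is adjusted for growth. The stretch studied here lies after the immediate early burst and before DNA replication would begin in such cells, so it samples the late part of the delayed response. In bulk RNA a lower level may come from less RNA per cell or from fewer cells that hold it, and these cannot be told apart.

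Libraries of the 2 windows held 35863899 to 58858945 counts. Of 15 markers expected in glioblastoma lines 11 were measured above the filter on low counts, with FN1, ANXA2, VIM and S100A6 each at 47129 normalized counts or more in every library, while SOX2, GFAP, S100B and PROM1 were at 0 to 6.58 normalized counts and did not pass it. Of 8 neuron markers 4 passed the filter, and their list summed to 603 to 698 normalized counts in the first window and 593 to 652 in the second, nearly all of it SNAP25 (569 to 673), with STMN2 and NEFL at 0 in all 10 libraries. Of 10 blood and immune markers 4 passed, and the list summed to 1644 to 1939 and 1634 to 1887, nearly all of it the lysosomal protein gene CD68 (1552 to 1857), with ITGAM at 48.0 to 74.9 and CD3E, MS4A1 and HBB at 0. The summed level of the 8 endothelial and epithelial markers was 46.7 to 63.0 normalized counts in the first window and 40.6 to 54.0 in the second. One technical feature ran through both windows. Within a window, the departure of a library from the mean followed the GC content of the gene's transcript, with Spearman's rho over 13952 genes that reached 0.59 (190 min), 0.46 (230 min) and 0.65 (240 min), and was negative in others, lowest in the 220 min library (-0.62) and that of 250 min (-0.65). The last library of the first window and the first of the second thus leaned the same way. The change between windows itself was nearly free of it (rho = 0.04), whereas a jump fitted at the boundary was not (rho = 0.30). These are descriptions across genes, which are not independent, and the part of GC content in any single gene was not tested other than by the corrected fit given beside the counts.

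**Figure D1:**
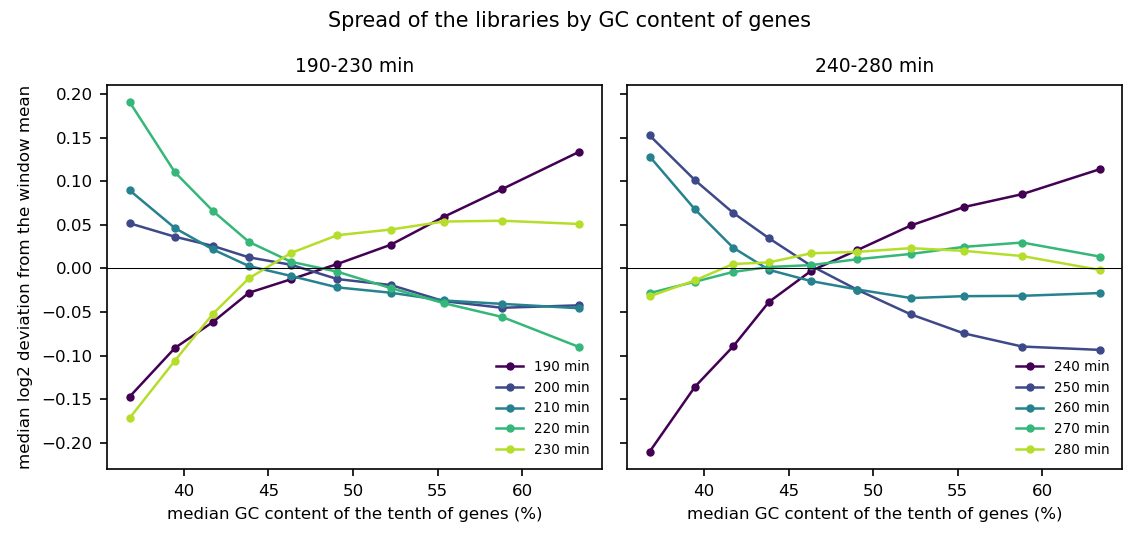
Median departure of each library from the mean of its window (log2, y axis) for 10 equal groups of genes ordered by GC content of the transcript (percent, x axis), one line per library, 190-230 min on the left and 240-280 min on the right. The 190, 230 and 240 min libraries run low in AT-rich genes, down to -0.21 at 240 min, and the 220 and 250 min libraries run high in them.

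Between the 2 windows 9 genes rose and 17 fell among 21629 tested, at an adjusted p below 0.01 by edgeR's quasi-likelihood test. These are 0.120% of all genes, 0.0416% called higher and 0.0786% lower. All 26 were protein-coding, and in all 26 the 5 libraries of one window lay wholly above the 5 of the other. Changes were moderate: the median fall was to 0.68 of the former level (log2 change -0.56) and the median rise to 1.45-fold (log2 change 0.53), and none of the 26 reached 2-fold. At a looser adjusted p below 0.05, 314 genes were higher (1.45% of those tested) and 398 lower (1.84%), 3.29% together, of which 290 and 363 were protein-coding and 9 and 20 lncRNAs. The smallest change so called was 0.14 on the log2 scale, in either direction. Windows without overlap were found in 345 genes on the upward side (1.60%) and in 532 on the downward side (2.46%), whatever the test gave. The stricter count moved with single libraries and with a correction for GC content. It was 202 higher (0.934%) and 220 lower (1.02%), 1.95% together, once GC content was corrected for, a fit added after seeing the data, which at 0.05 called 3.86% higher and 3.89% lower, 7.74% together. With DESeq2 it was 227 and 316. When 1 library was left out it ran from 0 to 228 higher and from 0 to 277 lower. Leaving out the 230, 240 or 250 min library raised it to 228, 165 and 47 higher and 277, 221 and 56 lower, leaving out 220 min left ARHGAP22 and KIF26B alone, and leaving out 190, 200, 210, 260, 270 or 280 min left none. The genes described first are those past 0.01, and gene groups are counted at 0.05. Over all 21629 genes, DESeq2 called 467 higher and 565 lower at 0.05, and spike-in scaling 68 and 113. Scaling by library size called 826 and 215, and an unadjusted p below 0.05 by edgeR was met by 1796 and 1846. Counts of list members under these settings are to be read against these totals.

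**Figure D2:**
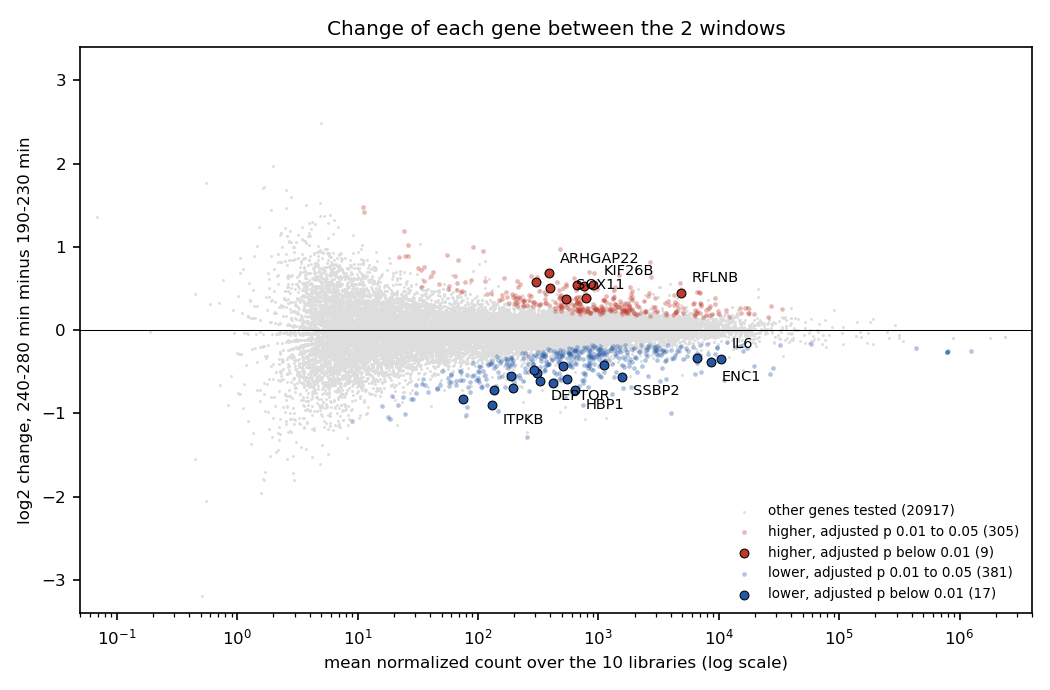
Log2 change from 190-230 to 240-280 min (y axis) against the mean normalized count over the 10 libraries (x axis, log scale) for each of 21629 genes tested. Large points mark the 9 genes higher and 17 lower at an adjusted p below 0.01, small colored points the others among the 314 higher and 398 lower below 0.05. Of these 314 and 398 genes 5 and 6 changed by 2-fold or more.

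The steepest fall of the strictly called genes was that of ITPKB (GRCh38, chromosome 1, 226631690 to 226739323), the kinase that turns the calcium-releasing messenger inositol trisphosphate into the tetrakisphosphate. ITPKB stood at 210.5, 185, 165, 149 and 143 normalized counts from 190 to 230 min and at 120.3, 93.4, 89.6, 75.1 and 75.5 from 240 to 280 min. Each library of the second window was lower than each of the first, and the log2 change was -0.90 ± 0.14 (SE, adjusted p = 0.0074). The fall had begun long before, from a mean of 407 ± 6.69 (SD, n = 2) at 0-10 min, and went on to 38.2 ± 10.99 (SD, n = 6) at 350-400 min. HBP1, an HMG-box repressor that holds back cell cycle entry, fell likewise. Its normalized counts were 969, 843, 779, 733 and 653 at 190 to 230 min, and 511, 559, 433, 464 and 433 at 240 to 280 min. The largest drop between neighboring libraries was the one from 230 to 240 min, no later library came back to the first window, and it changed by -0.72 ± 0.10 on the log2 scale (SE, adjusted p = 0.0095). DEPTOR, a protein that binds and inhibits the growth kinase mTOR, lost a similar share. In time order, DEPTOR had 407, 405, 422, 399 and 346 normalized counts in the first window and 283, 304, 244, 220.2 and 233 in the second. Its first 4 libraries were nearly level and the decline ran from 230 to 270 min, and the windows differed by -0.61 ± 0.09 in log2 (SE, adjusted p = 0.0068).

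PPP1R3C, which brings protein phosphatase 1 to glycogen, fell from 509 ± 47.8 to 325 ± 49.7 normalized counts (SD, n = 5 each, as for all window means of these 10 libraries), and the log2 change was -0.64 ± 0.10 (SE, adjusted p = 0.0087). SVIL, a membrane-bound actin and myosin II binding protein, was level within the first window before it fell. Over the 24 libraries from 0 to 230 min it had ranged from 155.9 to 361.55 normalized counts. The 5 earlier libraries held 183, 156, 172, 167 and 177 normalized counts of SVIL, the 5 later ones 137, 103, 95.3, 95.4 and 89.0. All of the second window lay below the first, and it changed by -0.72 ± 0.11 on the log2 scale (SE, adjusted p = 0.0068). GCNT2, the enzyme that branches poly-N-acetyllactosamine chains, fell by 0.58 on the log2 scale, the deubiquitinase MINDY1 by 0.51 and CTTNBP2, a cortactin-binding protein of low level (97.5 ± 16.3 to 54.1 ± 7.05), by 0.83. NOCT, the circadian deadenylase-like enzyme nocturnin, fell by 0.42. ENC1, an actin-binding kelch protein of neural tissue, declined gently. Counts of ENC1, normalized, ran 10516, 9956, 9856, 9811 and 8975 in the earlier window and 8375, 7905, 7218, 7051 and 7010.5 in the later. The decline was small in fold, each library was lower than the one before, and the windows differed by -0.39 ± 0.05 in log2 (SE, adjusted p = 0.0068).

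HEY1, a Notch-induced bHLH repressor, went down to a level that it then kept. For HEY1 the normalized counts read 255, 217, 237, 203 and 209.9 up to 230 min and 146, 175, 147, 144 and 147 from 240 min on. The second window was flat apart from 250 min, the log2 change was -0.55 ± 0.09 (SE, adjusted p = 0.0087), and the mean at 290-340 min was 157 ± 5.24 (SD, n = 6). ZIC5, a zinc finger factor of the neural tube, fell from 242 ± 33.9 to 148 ± 15.2. EYA1, a phosphatase and coactivator of homeodomain proteins, fell from 588 ± 42.7 to 435 ± 33.7, and SOBP, a nuclear zinc finger protein needed in the cochlea, from 340.1 ± 18.2 to 244 ± 15.9. SSBP2, a cofactor of LIM-domain complexes, fell from 1880 ± 145 to 1277 ± 153. The adjusted p of these 4 lay between 0.0068 and 0.0074, and SSBP2 was the only one of the 26 that did not pass 0.01 after GC correction (adjusted p = 0.018).

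A secreted cytokine and a target of the YAP coactivator fell from levels that serum had raised. IL6, the inflammatory cytokine interleukin 6, had climbed from 164 ± 23.2 normalized counts at 0-10 min (n = 2) to its highest window mean at 190-230 min. IL6 stood at 12052, 11625, 11066, 11489 and 11880 normalized counts from 190 to 230 min and at 10003, 9726, 9139.7, 8595 and 8389 from 240 to 280 min. The first window was a plateau, all 5 libraries of the second were lower and each was lower than the one before, and it changed by -0.34 ± 0.05 on the log2 scale (SE, adjusted p = 0.0068). ANKRD1, an ankyrin repeat protein widely used as a readout of YAP and TEAD, had its plateau earlier. Its normalized counts were 7283, 8017, 7843, 6898 and 6957 at 190 to 230 min, and 6228, 6239, 5949.9, 5501 and 5454 at 240 to 280 min. Its second window was lower in all libraries, the windows differed by -0.33 ± 0.05 in log2 (SE, adjusted p = 0.0099), and its mean of 5427 ± 292 at 290-340 min (n = 6) was little lower still. The 250 bases before the RefSeq start of each gene are shown, since both are textbook targets of factors that serum activates, with the matching element in capitals: for IL6 the NF-kappaB form (GGG, any 2 bases, then TTTCC), at chr7:22726950-22727199 on the plus strand, and for ANKRD1 the TEAD element GGAATG, at chr10:90921088-90921337 on the minus strand, both in GRCh38.p14.
IL6: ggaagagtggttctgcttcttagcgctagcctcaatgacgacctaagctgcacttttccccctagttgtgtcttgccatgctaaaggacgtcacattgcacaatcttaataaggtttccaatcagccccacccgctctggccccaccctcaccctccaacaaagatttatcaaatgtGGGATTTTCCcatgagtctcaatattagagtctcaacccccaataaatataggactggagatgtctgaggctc
ANKRD1: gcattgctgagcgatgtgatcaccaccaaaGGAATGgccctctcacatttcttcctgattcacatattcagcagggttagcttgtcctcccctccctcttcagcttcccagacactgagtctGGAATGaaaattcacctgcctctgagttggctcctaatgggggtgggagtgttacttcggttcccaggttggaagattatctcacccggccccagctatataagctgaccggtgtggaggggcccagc
The IL6 window held 1 match to the NF-kappaB form, 73 bases before the start, and the ANKRD1 window 2 matches to GGAATG, at 220 and 128 bases. Both strands were searched, also for TATAAA and CCAAT; the IL6 window held 2 matches to CCAAT, at 133 and 34 bases, which do not overlap the NF-kappaB match, and TATAAA was in neither window. Among 35116 RefSeq promoter windows of the same length 1.73% held the NF-kappaB form, 11.9% GGAATG, 32.0% CCAAT and 10.7% TATAAA. These are matches of letters only and say nothing of binding.

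The 9 genes that rose were led by ARHGAP22 (chromosome 10, 48446036 to 48656265), a GTPase-activating protein for Rac. In time order, ARHGAP22 had 282, 286, 299, 289 and 346 normalized counts in the first window and 413, 464, 474, 533 and 539 in the second. The first 4 libraries were level, the climb started at 230 min, and the log2 change was 0.69 ± 0.08 (SE, adjusted p = 0.003). KIF26B (chromosome 1, 245154985 to 245709432), a kinesin-family protein, stood out by its history. The 5 earlier libraries held 724, 691, 752, 731 and 807 normalized counts of KIF26B, the 5 later ones 977, 976, 1093, 1119 and 1229. Over the 24 libraries from 0 to 230 min it stayed between 594 and 807 normalized counts, and in the 17 libraries from 240 to 400 min between 976 and 1310. Here it changed by 0.54 ± 0.07 on the log2 scale (SE, adjusted p = 0.003), while its change in the step before was 0.05 ± 0.07 and in the step after 0.16 ± 0.06 on the same scale. CACNA1C, the pore-forming subunit of an L-type calcium channel, began to climb at 220 to 230 min. Counts of CACNA1C, normalized, ran 474, 509, 507, 548 and 654 in the earlier window and 737, 732, 762, 836 and 866 in the later. All libraries of the second window were higher, and the windows differed by 0.54 ± 0.08 in log2 (SE, adjusted p = 0.0068).

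HOMER2, a scaffold that ties receptors to calcium stores, rose almost without pause. For HOMER2 the normalized counts read 578, 596, 609.7, 629 and 703 up to 230 min and 765, 842, 956, 896 and 1057 from 240 min on. The lowest library of the second window was above the highest of the first, and the log2 change was 0.53 ± 0.08 (SE, adjusted p = 0.0072). RFLNB, a filamin-binding regulator of actin bundles, rose at an even pace. RFLNB stood at 3739, 4088, 3879, 4202 and 4663 normalized counts from 190 to 230 min and at 5111, 5298, 5599.5, 5853 and 6267 from 240 to 280 min. The increase ran through both windows, and it changed by 0.45 ± 0.06 on the log2 scale (SE, adjusted p = 0.0068). MPP3, a membrane-associated guanylate kinase, rose from 688 ± 60.2 to 901 ± 51.7. CEACAM19, a member of the immunoglobulin superfamily, rose from 244 ± 32.2 to 368 ± 37.4, and GALNT9, which starts mucin-type O-glycans, from 325 ± 31.4 to 462 ± 46.7. SOX11, a SoxC transcription factor of neural progenitors, rose and then stopped. Its normalized counts were 431, 436, 474, 487 and 501 at 190 to 230 min, and 583, 611, 561, 624 and 636 at 240 to 280 min. Its window means were 466 ± 31.01 and 603 ± 30.5, the windows differed by 0.37 ± 0.06 in log2 (SE, adjusted p = 0.0099), and the mean at 290-340 min was 618 ± 25.8 (n = 6).

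**Figure D3:**
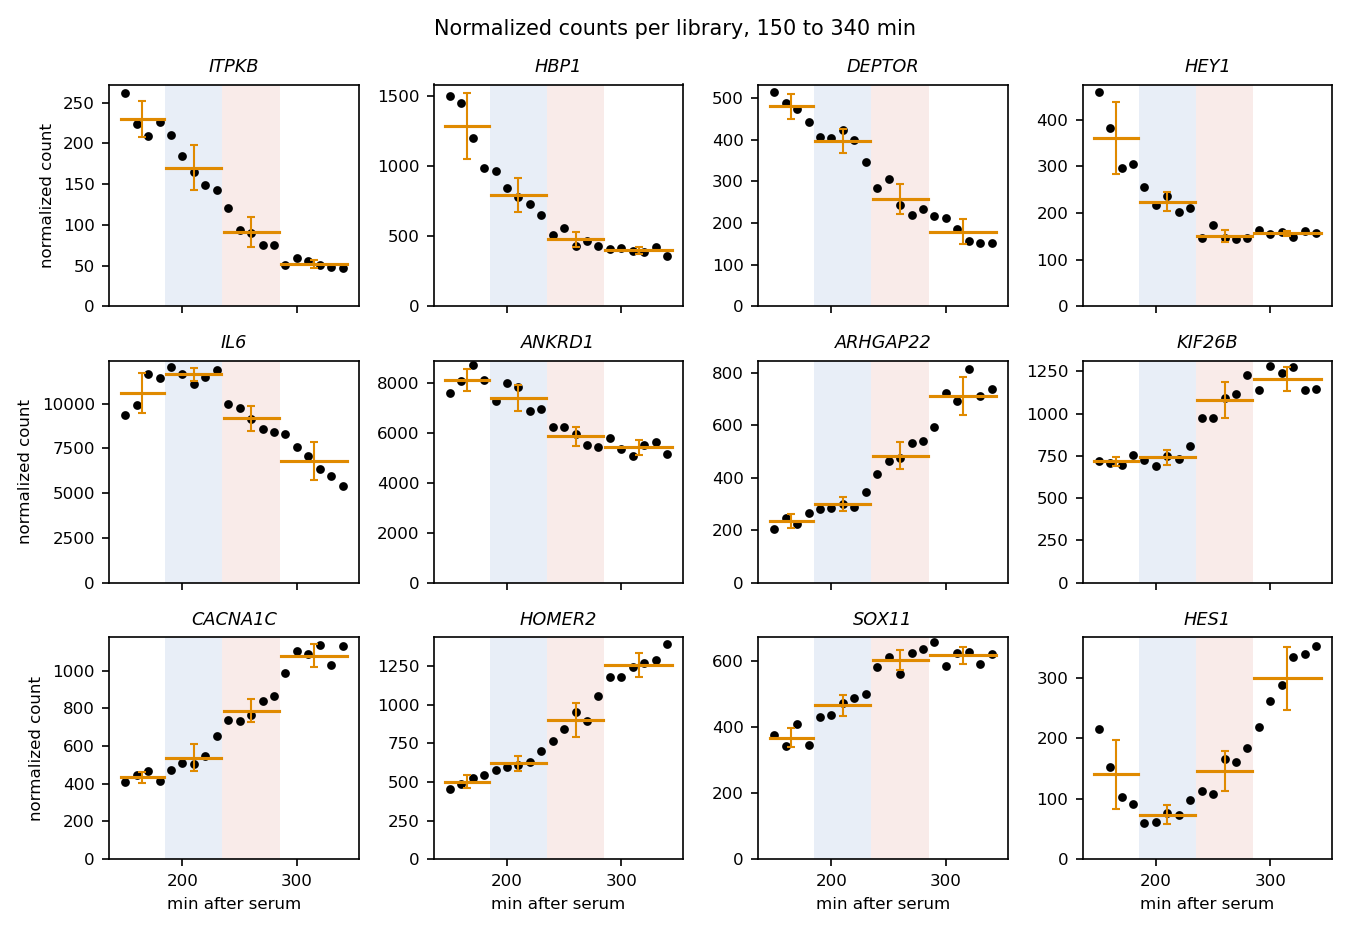
Normalized counts (y axis, from 0) of 12 genes in each library from 150 to 340 min after serum (x axis), with 190-230 min shaded blue and 240-280 min shaded red. Orange lines and bars are window means ± SD (n = 4, 5, 5 and 6). Most genes move through the boundary on a slope, KIF26B is level up to 220 min and HES1 has its lowest window mean at 190-230 min.

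Whether any gene jumped at the boundary, rather than drifting through it, was asked by fitting a straight line of time over the 10 libraries together with a term for the window. No gene had a jump past an adjusted p of 0.01 or 0.05, in either direction. The smallest adjusted p was 0.9999, 619 genes were under an unadjusted p of 0.05, and DESeq2 and the GC-corrected fit called 0 as well. In that same model the slope passed 0.01 in 53 genes (0.245%), 18 upward and 35 downward. Replacing the windows by the line alone, an alternative added after seeing the data, called 592 genes higher and 625 lower. The 26 genes were chosen for their change in these same libraries, which favors jumps of the same sign. Their jumps had the sign of the change in each case and ran from -0.43 to 0.29 on the log2 scale, with standard errors of 0.07 to 0.23. The largest were in SVIL (-0.43 ± 0.19) and EYA1 (-0.36 ± 0.13), and that of KIF26B was 0.22 ± 0.10. Over the 14032 genes with a mean of at least 50 counts the median standard error was 0.13 for a jump and 0.07 for the window change, so a jump had to be larger than a change to be seen. Calls came with a pair of settings: MIR3689F without a filter on low counts, and SCARNA2, a small Cajal body RNA, the lncRNA ENSG00000270066 that holds it, MIR3648-1 and MIR3648-2 when the 230 min library was left out. The last 4 have transcripts of 65.5 to 83.9% GC, and the 2 MIR3648 copies share reads.

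The change was also set against the steps on either side, each per 50 min between window centers and each sharing a window with it. No gene differed from the step before at an adjusted p below 0.01 or 0.05 (smallest 0.84, with 788 genes under an unadjusted p of 0.05), nor from the step after (smallest 0.66, with 838 genes), and DESeq2 called 0 in both. The median standard errors of these differences were 0.13 and 0.11. In the fit of the 20 libraries from 150 to 340 min that these tests used, 146 genes were higher and 226 lower at 0.01 for the present step, against 240 and 196 for the step before and 555 and 615 for the step after. The 4 windows hold 4, 5, 5 and 6 libraries in time order, and the time between their centers grows. These 3 pairs of counts are therefore not on equal terms. Side by side, some of the called genes had changes of similar size in the 3 steps and others did not. The values that follow are plain changes between window means, not scaled to 50 min, so they do not measure pace. RFLNB moved by 0.43 ± 0.07, 0.45 and 0.38 ± 0.06 over the 3 steps, SSBP2 by -0.37 ± 0.09, -0.56 and -0.63 ± 0.08, and PPP1R3C by -0.52 ± 0.10, -0.64 and -0.48 ± 0.10. SOX11 had 0.34 ± 0.06 before and 0.03 ± 0.06 after, and EYA1 -0.56 ± 0.09 before and -0.08 ± 0.08 after. IL6 had 0.14 ± 0.10 before and -0.44 ± 0.09 after, so that its sign before the step was opposite. Given the tests above, these differences between steps are descriptions.

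**Figure D4:**
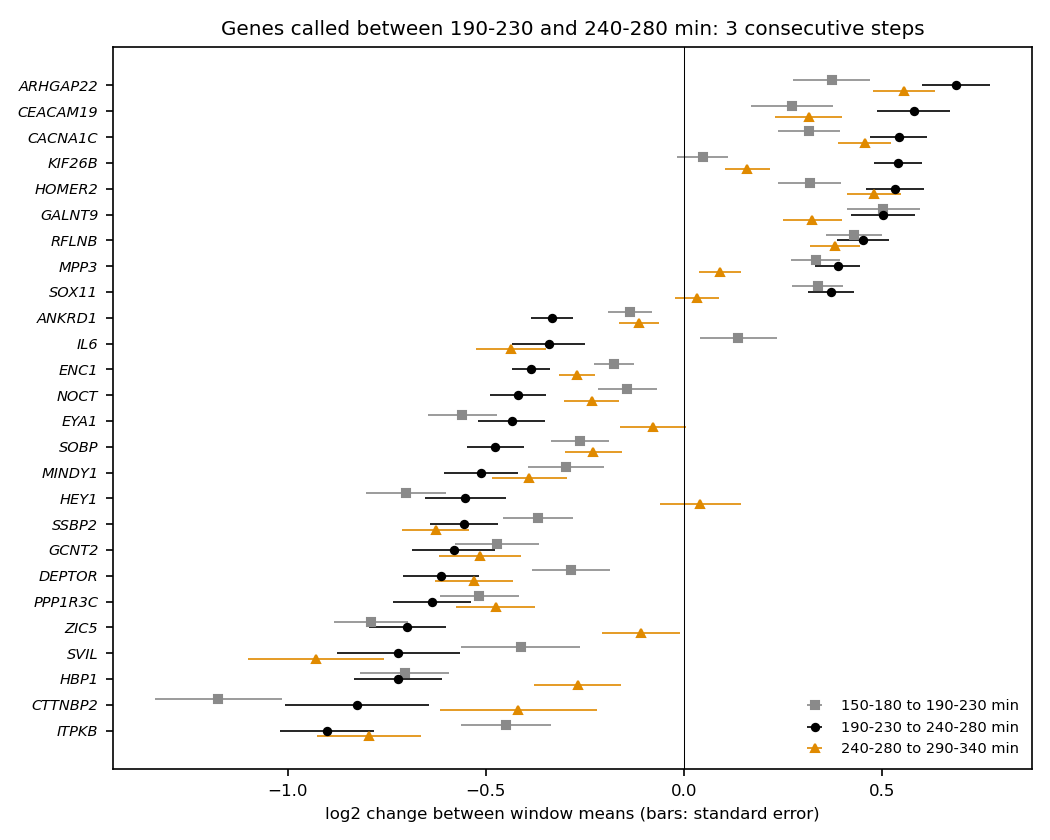
Log2 change between window means (x axis; bars are standard errors of the fit of 20 libraries) for the 26 genes called between 190-230 and 240-280 min (y axis), in the step before (gray squares), this step (black circles) and the step after (orange triangles). The genes were chosen for the black points. KIF26B, ANKRD1 and SOBP have smaller changes on either side, IL6 has the opposite sign before, and HEY1, EYA1, ZIC5 and SOX11 are near 0 in the step after.

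Immediate early transcription factors had more falls than rises. Of 24 tested 6 fell and 1 rose at an adjusted p below 0.05, against 1.84% and 1.45% of all genes, with 20 of 24 changes below 0 and a median of -0.32, where the median over all genes was 0.00. With GC correction 11 fell, with DESeq2 13 and with spike-in scaling 8. NR4A3, an orphan nuclear receptor, had the steepest fall. In time order, NR4A3 had 422, 418, 416, 322 and 241 normalized counts in the first window and 193, 183, 151, 122 and 89.9 in the second. The mean fell from 364 ± 80.5 to 148 ± 42.8, each library from 200 min on was lower than the one before, and the log2 change was -1.29 ± 0.23 (SE, adjusted p = 0.023). FOS, the AP-1 subunit that peaks within the first hour (mean 13437 at 20-40 min), was still falling from a low level. The 5 earlier libraries held 107, 82.7, 80.1, 65.0 and 69.7 normalized counts of FOS, the 5 later ones 63.2, 46.7, 47.6, 41.6 and 55.1. All of the second window lay below the first, and it changed by -0.66 ± 0.15 on the log2 scale (SE, adjusted p = 0.027). EGR2 (-0.68), ATF3, BHLHE40 (-0.25) and SRF (-0.30), the serum response factor itself, also fell.

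HES1, the Notch-induced repressor whose mRNA pulses after serum, was the member that rose. Counts of HES1, normalized, ran 58.9, 61.5, 76.6, 73.2 and 98.6 in the earlier window and 113, 108, 166, 160.3 and 183 in the later. Every library of the second window was higher than every library of the first, and the windows differed by 0.96 ± 0.18 in log2 (SE, adjusted p = 0.017). The mean was 4077 ± 765 around its pulse at 50-70 min (n = 3), 73.8 ± 15.8 in the window of 190-230 min and 397 ± 20.6 by 350-400 min (n = 6), and the change was -0.96 ± 0.25 in the step before and 1.04 ± 0.20 in the step after. The difference in rate from the step before was 2.01 ± 0.46 per 50 min and did not pass the test (adjusted p = 0.999 by edgeR). Other Notch and Wnt genes were mixed: of 25 tested 4 rose (HES1, WNT7B, SFRP1 and NOTCH2) and 2 fell (HEY1 and the receptor FZD1), with a median of -0.01 that turned to 0.04 when scaled by library size. The related repressors HES1 and HEY1 thus moved in opposite directions.

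The growth arrest list, of FOXO targets and quiescence genes, also had more falls than rises. Of 27 tested 5 passed at 0.05 downward and 1 upward, 22 changes were below 0 and the median was -0.16, with 10 lower after GC correction, 10 with DESeq2 and 3 with spike-in scaling. KLHL24, a ubiquitin ligase adaptor, had the largest fall of those that passed. For KLHL24 the normalized counts read 1088, 1074, 1058, 951 and 655 up to 230 min and 564, 648, 509, 448 and 404 from 240 min on. The largest drop between neighboring libraries lay between 220 and 230 min, inside the first window, and the log2 change was -0.90 ± 0.17 (SE, adjusted p = 0.027). The transcript of KLHL24 has 36.7% GC. In the tenth of genes lowest in GC content the median departure was 0.19 in log2 at 220 min and -0.17 at 230 min. Its part in the drop of KLHL24 was not tested. BMF, a BH3-only cell death protein, YPEL3, PNRC1 and the arrestin-domain protein ARRDC3 were the others that fell. TXNIP, the inhibitor of thioredoxin and of glucose uptake, went against the list. TXNIP stood at 401, 410.4, 448, 429 and 499 normalized counts from 190 to 230 min and at 525, 561, 659, 738 and 741 from 240 to 280 min. It rose in both windows, with a small step back at 220 min, from its lowest window mean of 438 ± 38.9, it changed by 0.55 ± 0.10 on the log2 scale (SE, adjusted p = 0.014), having had a change of -0.39 ± 0.12 in the step before. ID2 (-0.73) and ID4 (-0.97), inhibitors of bHLH factors, and PCDH18 (-0.99), a protocadherin, were among the largest falls at 0.05 outside the lists, as was PPARGC1A (-0.73), the coactivator of mitochondrial biogenesis.

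Cholesterol supply genes fell without exception among those called. Of 23 tested 6 fell and 0 rose by edgeR at 0.05 (26.1% against 1.84% of all genes), and 7 fell and 0 rose by DESeq2, with 20 of 23 changes below 0 and a median of -0.12. At an unadjusted p below 0.05 these were 11 lower and 0 higher, while spike-in scaling left 2 lower, library size 3 and GC correction 9. Among them were IDI1 (-0.43), the isomerase of isoprenoid building blocks, HMGCS1 (-0.40), which makes HMG-CoA, INSIG1 (-0.20), the partner that holds SCAP in the ER, and MSMO1 (-0.20), a sterol oxidase. HMGCS1 stood at 7512, 8084, 7658, 7579 and 6513 normalized counts from 190 to 230 min and at 6032, 6699, 5433, 5099.8 and 5036 from 240 to 280 min. HMGCS1 was highest at 200 min and overlapped between the windows only through the 230 and 250 min libraries, and the windows differed by -0.40 ± 0.08 in log2 (SE, adjusted p = 0.022). In time order, INSIG1 had 14986, 15717, 14982, 14326 and 14347 normalized counts in the first window and 13066, 14165, 12853, 12110 and 12337 in the second. All of the second window of INSIG1 lay below the first, and the log2 change was -0.20 ± 0.05 (SE, adjusted p = 0.026). In the fatty acid list 0 of 15 passed at 0.05 with edgeR, DESeq2 or GC correction (1 higher and 3 lower at an unadjusted p below 0.05).

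Of 39 ribosome biogenesis factors 7 rose and 0 fell at 0.05 by edgeR (17.9% against 1.45%), 38 of 39 changes were above 0, and the median was 0.16. With GC correction 20 rose and 0 fell, with DESeq2 9 and 0, and at an unadjusted p below 0.05 27 and 0. With spike-in scaling the count of rises was 0, with a median of 0.17. Over all genes that scaling called 68 higher, against 314 by the main scaling. Members that rose were BOP1 (0.31) and RRP12 of the large and small subunit pathways, POLR1B (0.28), a subunit of RNA polymerase I, NOLC1 (0.20), the nucleolar protein NCL (0.15) and DKC1 and GAR1 (0.20) of the H/ACA pseudouridylation complex. The 5 earlier libraries held 3999.8, 4522, 4523, 4641 and 5046 normalized counts of DKC1, the 5 later ones 5277, 5192, 5435, 5647 and 5813. DKC1 rose in small increments apart from the 250 min library, and it changed by 0.27 ± 0.05 on the log2 scale (SE, adjusted p = 0.019). The lncRNAs that host snoRNAs in their introns showed 4 of 20 higher (SNHG19, SNHG12, SNHG1 and SNHG16) and 0 lower by edgeR (DESeq2 5 and 0, spike-in scaling 0 and 0, unadjusted p below 0.05 7 and 0), with a median of 0.09. Counts of SNHG19, normalized, ran 303, 345, 336, 306 and 330.0 in the earlier window and 392.5, 401, 431, 378 and 426 in the later. The second window of SNHG19 was higher throughout, and the windows differed by 0.33 ± 0.06 in log2 (SE, adjusted p = 0.016). Cytosolic ribosomal protein genes themselves had 0 of 38 called in either direction by edgeR, DESeq2, GC correction or an unadjusted p below 0.05. The U3 snoRNA genes, whose RNA guides cleavage of the rRNA precursor, fell: SNORD3C went from 1361400 ± 75072 to 1146500 ± 80507 normalized counts with a log2 change of -0.25 ± 0.05 and an adjusted p of 0.021, and its copies, which share reads with it, changed by -0.26.

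**Figure D5:**
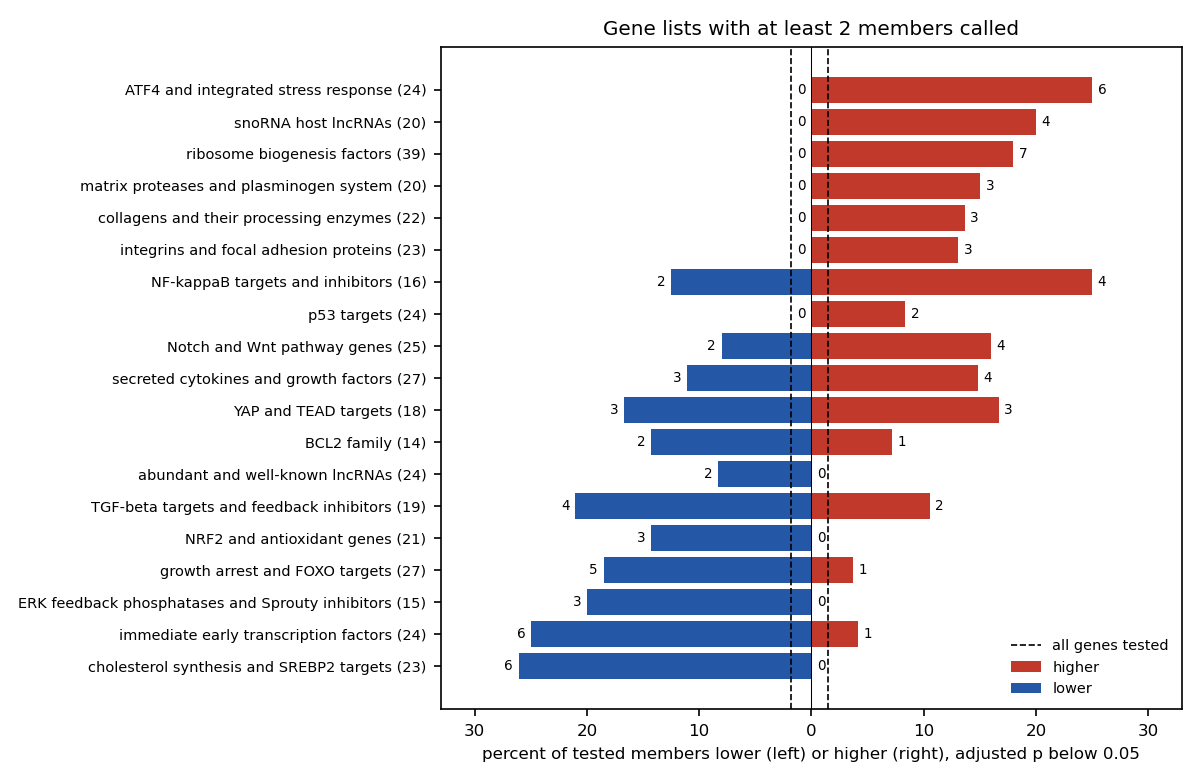
Percent of the tested members of each gene list that were higher (red, right) or lower (blue, left) between the windows at an adjusted p below 0.05 (x axis), for the lists with at least 2 members called; numbers at the bars are members and those in brackets are members tested. Dashed lines are the shares over all genes, 1.45% and 1.84%. Cholesterol and immediate early genes lie at the bottom and the amino acid response and ribosome biogenesis at the top.

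Of 24 genes of the ATF4 and integrated stress response list 6 rose and 0 fell at 0.05 by edgeR (25.0%), 21 of 24 changes were above 0 and the median was 0.21, while DESeq2 called 11 higher and 1 lower, spike-in scaling 4 and 0, and 16 and 1 were under an unadjusted p of 0.05. PSAT1 (0.52) and PHGDH (0.23) make serine, SLC7A5 (0.33) and its partner SLC3A2 exchange large neutral amino acids, SLC7A1 imports arginine, and TRIB3 (0.50) is a feedback inhibitor of ATF4. For PSAT1 the normalized counts read 1223, 1334, 1501, 1662 and 1803 up to 230 min and 1819, 2011, 2355, 2199 and 2404 from 240 min on. The rise of PSAT1 ran through both windows, and the log2 change was 0.52 ± 0.11 (SE, adjusted p = 0.035). GARS1 (0.32) was the 1 of 25 tRNA synthetases that passed, with 23 of 25 above 0. With GC correction 8 others passed and GARS1 did not (adjusted p = 0.08). MTHFD1L (0.26), of mitochondrial one-carbon metabolism, was the 1 of 26 genes of nucleotide synthesis. Genes of the unfolded protein response of the ER gave 0 of 24 at 0.05 with edgeR and DESeq2 and 1 higher with GC correction (2 higher at an unadjusted p below 0.05).

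NF-kappaB targets split. Of 16 tested 4 rose at 0.05, TRAF1 (0.48), NFKBIE (0.42), NFKB2 (0.40) and TNIP1, and 2 fell, IER3 (-0.51) and NFKBIA (-0.24), an inhibitor that NF-kappaB itself induces. NFKBIA stood at 4510.2, 4153, 4304, 4335 and 4509 normalized counts from 190 to 230 min and at 4050.4, 3746, 3632, 3681 and 3419 from 240 to 280 min. NFKBIA held its level through the first window and was lower in each library of the second, and it changed by -0.24 ± 0.05 on the log2 scale (SE, adjusted p = 0.017). NFKB2 stood at 592, 588, 511, 531 and 669 normalized counts from 190 to 230 min and at 737, 650.0, 737, 825 and 868 from 240 to 280 min. NFKB2, the precursor of p52, was lowest at 210 to 220 min, its windows overlapped at 230 and 250 min, and the windows differed by 0.40 ± 0.08 in log2 (SE, adjusted p = 0.021). Secreted factors split as well, with 4 of 27 higher (FGF5, STC2, IL11 and VEGFC) and 3 lower (IL6, the chemokine CXCL3 and endothelin 1, EDN1, by 0.28). So did YAP and TEAD targets, with NT5E (0.69), WWC1 and CRIM1 higher and CCN2 (-0.42), LATS2 and ANKRD1 lower of 18, and TGF-beta genes, with 2 members, PMEPA1 among them, higher and BAMBI (-0.57), CCN2, SMAD6 and TGFBR2 lower of 19. Medians of the last 3 lists were within 0.04 of 0 and turned positive when scaled by library size. With spike-in scaling these lists had 2, 2 and 0 members higher and 0, 0 and 1 lower. Of 15 ERK feedback phosphatases and Sprouty inhibitors 3 fell (DUSP14, DUSP1 and DUSP10), though 8 changes were above 0 and the median was 0.02. Of 21 antioxidant genes 3 fell (GCLC, HMOX1 and CAT), with 18 changes below 0 and a median of -0.08. In these 2 lists 0 were higher by edgeR, 1 and 0 by DESeq2 or GC correction, and 2 and 1 at an unadjusted p below 0.05. Those falls were lost with spike-in scaling (0 in both lists), which over all genes called 113 lower against 398 by the main scaling. Scaling by library size left 1 and 0 lower and 1 and 1 higher.

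The 3 lists of adhesion and matrix genes had rises and no falls by edgeR at 0.05. Integrins and focal adhesion proteins gave 3 of 23 (ITGB3, ITGA5 and PXN), collagens and their enzymes 3 of 22 (COL8A1, COL7A1 and LOXL2) and the protease list 3 of 20 (ADAMTS6 and PLAUR among them), and with GC correction 1, 1 and 2 members of these lists were lower (1, 2 and 5 at an unadjusted p below 0.05, 0 with DESeq2), while with spike-in scaling 1, 0 and 0 were higher. In time order, ITGA5 had 4914, 5400.3, 5086, 5765 and 6154 normalized counts in the first window and 6544, 6014, 7133, 7095 and 7134 in the second. ITGA5, the fibronectin receptor subunit alpha 5, climbed in both windows, which overlapped at 230 and 250 min, and the log2 change was 0.31 ± 0.06 (SE, adjusted p = 0.02). COL7A1 and the peptide hormone gene UCN2, which lies next to it, shared the smallest adjusted p against the step after (0.66), and COL7A1 had 0.32 ± 0.06, 0.24 and -0.19 ± 0.05 over the 3 steps. EGFR (0.33) and TNC (0.25) were the 2 of 11 glioblastoma markers that rose. AKAP12, a scaffold for protein kinases A and C, was among the largest rises at 0.05. The 5 earlier libraries held 1457, 1877, 1861, 2199 and 2226 normalized counts of AKAP12, the 5 later ones 2497, 3084, 3692, 3642 and 4109. All of the second window was higher, at 1.77-fold of the first by the fit, and it changed by 0.82 ± 0.16 on the log2 scale (SE, adjusted p = 0.029). Beside it stood NAV2 (0.97), NT5E, the 5'-nucleotidase CD73, G0S2 (0.66), an inhibitor of lipolysis, and KRT81 (0.70).

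Several lists that concern division and energy gave no call. At an adjusted p below 0.05 edgeR called 0 of 30 DNA replication and E2F genes, 0 of 34 proteasome subunits, 0 of 35 nuclear-encoded respiratory chain subunits and 0 of 23 replication-dependent histones, and DESeq2 0 in each. At an unadjusted p below 0.05 these lists had 2, 2, 0 and 0 members higher and 0, 0, 1 and 9 lower, while GC correction called 1, 1, 0 and 0 higher and 0, 0, 0 and 3 lower. Their median changes were 0.02, 0.02, -0.02 and -0.15, and 21 of the 23 histones had a change below 0. CCND1, cyclin D1, was the 1 of 22 G1 regulators that passed, at 0.16. The 13 mRNAs encoded by mitochondria all had a change below 0 with a median of -0.13, 0 passed 0.05 with edgeR or DESeq2 (9 lower at an unadjusted p below 0.05), and their share of all counts was 0.44% ± 0.03 and 0.42% ± 0.02 (exact permutation test, two-sided, p = 0.21, adjusted over 5 shares 0.26). Protein-coding genes held 55.4% ± 1.51 and 57.7% ± 2.18 of counts (exact permutation p = 0.095, adjusted 0.16), and the 10 genes with most counts, copies of 7SL, 7SK and U3, 31.3% ± 1.1 and 29.1% ± 1.77 (exact permutation p = 0.048, adjusted 0.16). For 5 against 5 the smallest p possible was 0.0079. Spike-ins held 1.42% ± 0.18 and 1.45% ± 0.13, and lncRNAs 4.64% ± 0.11 and 4.46% ± 0.13, with adjusted p of 0.87 and 0.16 in the exact permutation test. The lncRNA share holds ENSG00000262202, which went from 863990 to 723540 normalized counts. The U3 gene SNORD3D went from 863690 to 723270, and shared reads were counted for each gene. The difference in lncRNA share can therefore not be told apart from that of U3.

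Of 3508 lncRNAs tested 0 passed 0.01 with edgeR. At 0.05 edgeR called 9 higher (0.257%, against 1.45% of all genes) and 20 lower (0.570%, against 1.84%), DESeq2 16 and 24, and 127 and 207 were under an unadjusted p of 0.05. The 20 lower include ENSG00000262202 (-0.26), whose counts were close to those of the U3 gene SNORD3D. Scaling by library size turned the balance to 28 higher and 13 lower, and spike-in scaling gave 3 and 3. Their median change of -0.04 turned to 0.01 when scaled by library size. COPS8-DT (-0.75) and DPH6-DT (-0.74), transcribed divergently from protein-coding genes, had the largest falls with a mean of at least 20 counts, and C12orf75-AS1 (1.02) and ENSG00000260862 (0.74) the largest rises. Counts of NDUFA6-DT, normalized, ran 117, 107, 93.8, 107 and 105 in the earlier window and 76.5, 71.5, 77.1, 63.9 and 72.9 in the later. NDUFA6-DT fell by 0.55 with an adjusted p of 0.012 and then had a change of 0.65 ± 0.14 in the step after, where it shared the smallest adjusted p against that step (0.66). CARMN (-0.51) and OIP5-AS1 (-0.18) were the 2 of 24 well-known lncRNAs that fell.

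Of the remaining lists most had 0 or 1 member called. The cytoskeletal targets of SRF and its MRTF cofactors had 28 of 30 changes above 0 with a median of 0.12, of which PDLIM7 (0.32) passed 0.05, 3 with DESeq2 and 0 with spike-in scaling. Members of the BCL2 family moved both ways, with the inhibitor of cell death BCL2A1 higher (0.89) and BCL2 (-0.34) and BMF (-0.66) lower of 14. Among p53 targets 2 of 24 rose, TIGAR and the death receptor TNFRSF10B, and 0 fell with edgeR, against 3 and 2 with DESeq2 and 5 and 5 at an unadjusted p below 0.05. PTGS2 (0.48), the inducible cyclooxygenase, was the 1 of 10 prostaglandin genes, SLC39A14 (0.29), a zinc importer, the 1 of 11 metallothionein and zinc genes, POLR1B the 1 of 22 subunits of RNA polymerases I and III, and KPNB1, importin beta, the 1 of 34 nuclear pore and transport factors that rose. Single falls were those of KIF23 (-0.29) among 31 mitosis genes, STAT2 (-0.23) among 27 interferon-stimulated genes, the cochaperone BAG3 (-0.27) among 22 heat shock genes, the glucose transporter SLC2A3 (-0.30) among 24 glycolysis genes, EIF4B among 29 initiation factors and BHLHE40 among 22 clock genes. With edgeR at 0.05, 0 members passed among mRNA decay factors, mitochondrial ribosomal proteins, chaperonin subunits, SR proteins, lysosomal, ciliary and chromosome 19 zinc finger genes. DESeq2 called 1, 1, 0, 2, 0, 0 and 0 of these higher and 1, 0, 0, 0, 1, 0 and 0 lower, and an unadjusted p below 0.05 was met by 3, 4, 6, 6, 1, 0 and 2 higher and 4, 0, 0, 1, 2, 9 and 1 lower. Over all 21629 genes the unadjusted p below 0.05 was met by 1796 higher and 1846 lower.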

How the data were processed

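Per the labels and the study's methods, the authors removed adapter sequence (cutadapt 1.11), placed the paired reads on GRCh38 (STAR 2.5.2a) and deposited raw counts per gene made by featureCounts, over GENCODE exons and by strand. A read with several places or genes was counted for each of them, so copies with near-identical sequence share counts. The deposited normalized values (a signal per gene) are these counts divided by DESeq2 1.24.0 size factors, and the recomputed factors differed from them by at most 2.2e-16 of their value. The table held 58721 genes and 77 spike-ins. Names came from GENCODE 44, matched for 58207 genes, and 45 pseudoautosomal copies were left out.

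Counts were tested with edgeR 4.0.16 (R 4.3.3) by robust quasi-likelihood with median-of-ratios factors and Benjamini-Hochberg adjustment over the 21629 genes that exceeded 10 counts once and 2 counts in 3 consecutive libraries of the time course. The 5 libraries at 190-230 min were compared with the 5 at 240-280 min; the jump adds a straight line of time; the rates use 20 libraries in 4 windows. Positive changes are higher at 240-280 min. The scripts were tested on simulated data. Normalized counts are not scaled by gene length, so levels are not compared between genes. Shares of counts carry counting error far below the spread between libraries. DESeq2 1.42.0, other scalings, filters and left-out libraries were alternatives; the GC correction took out each library's median departure in 20 bins of transcript GC content, over genes with a mean of at least 50 counts. Figures and tables used Python 3.11.15, pandas 2.3.3 and scipy 1.17.1.

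The windows, the 52 lists and the rules were chosen with earlier results of these data known. Named genes are, past 0.01, the 10 coding genes of steepest rise and the 10 of steepest fall whose mean is 100 counts or more, 5 lncRNAs each way whose mean is 20 or more, and up to 3 members of each list. The remaining genes of the 26, the same rule at 0.05, and single genes from the lists and outside them were added after the values were seen. Promoters come from RefSeq (GRCh38.p14), where 12273 tested genes had an entry. Values of some members of the lists are not reported here.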

Additional observations from a re-analysis of the deposited data

Results flagged for a closer look

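In 4 of the 64 groups of 5 libraries examined, 1 library stood further from its nearest neighbor than 0.71 of the whole range, which chance gives in about 1 of 20 groups. MINDY1 at 190-230 min had a highest library of 449.3 normalized counts against a median of 345.4. SSBP2 at 190-230 min had a lowest library of 1629, the last one before the boundary, against a median of 1922. HEY1 at 240-280 min had a highest library of 174.5 against 146.7, and ARHGAP22 at 190-230 min a highest of 345.6, again at 230 min, against 288.7. The windows of these 4 genes did not overlap with those libraries included.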

How the results depend on the processing

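All 26 called genes kept the sign of their change under all 20 alternatives. Their windows did not overlap, so leaving out libraries or changing the filter could not have turned a sign, and the kept signs are no support there. The number of genes past 0.01 did not hold. It was 38 higher and 62 lower with spike-in size factors, 36 and 2 when scaled by library size only (826 and 215 at 0.05, where the median change of all genes was 0.05), 248 and 307 without a filter on low counts, 2 and 0 with filterByExpr, 227 and 316 with DESeq2, 405 and 481 without the 230 and 240 min libraries and 185 and 255 with all 41 libraries fitted as 10 windows. At an adjusted p below 0.05 it was 314 and 398. Settings added after seeing the data gave 202 and 220 (GC correction), 834 and 841 (GC correction, 0.05) and 592 and 625 (a straight line of time). TMM gave 10 and 18. Leaving out 1 library gave 0 to 228 higher and 0 to 277 lower. Of the 26 genes, 26 stayed past 0.01 with DESeq2, TMM, no filter, the straight line, without both boundary libraries, or without the 230, 240 or 250 min library, 25 with GC correction, 22 with all 41 libraries, 14 with spike-ins, 11 with library size, 2 with filterByExpr or without 220 min, and 0 without 190, 200, 210, 260, 270 or 280 min; the cause was not tested. Jumps stayed at 0 save 1 higher without a filter and 0 to 4 higher with 1 library left out, and both rates at 0 throughout. Differences in share with 1 library left out ran from 1.60 to 2.93 percentage points for protein-coding genes, -0.23 to -0.15 for lncRNAs, -0.031 to -0.012 for mitochondrial mRNAs, -2.63 to -1.54 for the 10 genes with most counts and -0.018 to 0.079 for spike-ins, where the sign turned without 220 min (-0.018), 230 min (-0.014) or 270 min (-0.012). Of the counts of list members past 0.01, recomputed under these settings, 433 stayed within 1.5 times and 191 moved. At the main setting only the YAP and TEAD, secreted factor and Notch and Wnt lists had a member past 0.01, 1 lower each. Every other such count was 0, and those that stayed at 0 are among the 433. These numbers therefore say little of the list counts at 0.05. No paired analysis was possible because the labels carry no replicate numbers and each time point is 1 library. With 5 libraries a window, the smallest change called at 0.05 was 0.14 in log2.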
